A study of Mus musculus with 209 samples.

Results

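The gene set comprised p53 itself (Trp53) and 9 genes of its response and of apoptosis, Mdm2, Cdkn1a, Pmaip1, Gadd45a, Gadd45b, Bax, Zmat3, Ccng1 and Aen. The members were chosen by symbol, and all 10 were found among the 24450 gene rows of the count tables. They were read in 33 single mouse MII oocytes, 17 single 2-cell libraries and 4 epiblast libraries of a study of DNA methylation in embryos and germ cells. The oocytes were 14 wild-type (WT) and 19 labelled N14 maternal KO, and the 2-cell libraries were 8 WT and 9 of that KO. N14 is read here as Nlrp14, an NLRP-family gene whose product the mother places in the egg.

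Mothers of the oocytes and 2-cell embryos were C57BL/6 females of 6 to 8 weeks, superovulated with PMSG and hCG in all 4 groups. Collection followed hCG by 14 to 15 hours for MII oocytes and by 42 to 43 hours for 2-cell embryos. Fathers were C57BL/6 or PWK males, and which of these sired the 2-cell libraries is not stated for each. The KO is a maternal genotype, so a KO 2-cell library is an embryo from a mother with the deletion. The labels name neither the animals nor the promoter behind the deletion. The epiblasts, from whose cells the fetus develops, were WT from C57BL/6 parents. There were 2 libraries from embryos at E6.5, labelled ND with no meaning given, and 2 labelled IVC with no culture time.

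p53 is a transcription factor that cells hold at low level through Mdm2, a ubiquitin ligase that marks p53 for destruction and is itself a p53 target. When DNA is damaged, the kinases Atm, Atr and Chek2 act on p53, and it then switches on genes for arrest, repair and death. Cdkn1a, the inhibitor p21, blocks the cyclin-dependent kinases. Gadd45a and Gadd45b are stress-response proteins, and Ccng1 is a cyclin that recruits a phosphatase to Mdm2. Bax opens the mitochondrial outer membrane, Pmaip1 (Noxa) neutralises the survival protein Mcl1, Aen is an apoptosis-linked nuclease, and Zmat3 is a zinc-finger RNA-binding protein. Since p53 is controlled largely at the protein level, mRNA counts of Trp53 do not measure its activity.

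p53 binds a pair of decamers with a short spacer, and promoters were searched for the decamer consensus because several members differed together between the groups. The 250 bases before each RefSeq gene start (build GRCm38.p6, while the counts were made on mm9) were read for 8 members, and Pmaip1 and Zmat3 had no entry. An exact decamer, which reads as the consensus on either strand, was found for 7 of the 8, against 8.2% of the 27025 genes in the same table. A pair of such exact decamers with a spacer of at most 13 bases was found for Cdkn1a only, with a spacer of 12 bases, and for 18 genes (0.0666%) in all. The 5 promoters below are those of the arrest genes and of Bax, written 5′ to 3′ up to the base before the start, with decamers in capitals.
Cdkn1a, chr17:29090729-29090978, plus strand: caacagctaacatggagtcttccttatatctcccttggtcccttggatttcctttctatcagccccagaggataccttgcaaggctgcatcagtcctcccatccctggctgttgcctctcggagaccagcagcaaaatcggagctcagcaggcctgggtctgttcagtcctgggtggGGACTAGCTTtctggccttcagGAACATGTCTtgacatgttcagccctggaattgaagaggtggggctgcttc
Ccng1, chr11:40755287-40755536, minus strand: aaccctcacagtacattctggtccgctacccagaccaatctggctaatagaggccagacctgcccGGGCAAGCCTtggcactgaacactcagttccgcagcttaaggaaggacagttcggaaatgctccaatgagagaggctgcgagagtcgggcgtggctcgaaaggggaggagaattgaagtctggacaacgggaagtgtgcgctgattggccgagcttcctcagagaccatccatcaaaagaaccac
Gadd45a, chr6:67037408-67037657, minus strand: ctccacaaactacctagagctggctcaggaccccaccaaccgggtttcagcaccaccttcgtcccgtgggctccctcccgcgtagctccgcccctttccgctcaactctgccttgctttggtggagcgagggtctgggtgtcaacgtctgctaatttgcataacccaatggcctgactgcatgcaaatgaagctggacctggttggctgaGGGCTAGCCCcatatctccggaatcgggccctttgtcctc
Gadd45b, chr10:80929841-80930090, plus strand: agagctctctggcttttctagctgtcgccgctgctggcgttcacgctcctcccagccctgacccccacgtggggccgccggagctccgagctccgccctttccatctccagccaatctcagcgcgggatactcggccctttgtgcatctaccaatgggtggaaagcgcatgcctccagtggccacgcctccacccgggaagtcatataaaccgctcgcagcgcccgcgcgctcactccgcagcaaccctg
Bax, chr7:45466899-45467148, minus strand: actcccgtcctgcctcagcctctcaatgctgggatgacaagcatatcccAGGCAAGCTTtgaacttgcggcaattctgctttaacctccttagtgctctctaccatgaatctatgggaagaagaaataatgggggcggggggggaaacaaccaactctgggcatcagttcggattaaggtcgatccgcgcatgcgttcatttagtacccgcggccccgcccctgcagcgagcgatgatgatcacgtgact
The Cdkn1a decamers lay 73 to 64 and 51 to 42 bases before the start used here, and the window of its other listed start held none. That other window, chr17:29093519-29093768, lies downstream on the same strand, so the start used here is the upstream one. The bases directly after the second Cdkn1a decamer, tgacatgttc, differ from the consensus only in their first base. The exact search therefore left them unmarked, and that pairing without a spacer was not counted. The Gadd45a decamer lay 40 to 31 bases before its start, that of Ccng1 185 to 176 and that of Bax 201 to 192. These letters are absent from the Gadd45b window. Trp53, Mdm2 and Aen each had 1 decamer, Aen in 1 of its 2 windows. A match of letters is a description of the window and no evidence of binding.

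Values are CPM, counts scaled to the same total of gene counts in every library. No animal is named for the single-cell oocyte and 2-cell libraries, so each group counted as 1 sample and no test was run between them. Groups were compared by the log2 ratio of their pooled CPM. The 95% interval covers counting error of the pooled reads only and leaves out the spread between libraries. Since the reads carry no molecular identifiers, reads are not separate molecules, and the interval may be too narrow even for counting error. A gene was called higher or lower at 2-fold or more where either pool reached 10 CPM. Total gene counts per library ran from 2704050 to 15007301. Nlrp14 matched the labels: it lay at 106 to 477 CPM in WT and 29.4 to 86.4 in KO 2-cell libraries, and at 225 to 3307 in WT and 0.643 to 73.2 in KO oocytes. Oocytes fell into technical sets. In the spike-in set (over 0.01% ERCC RNA) were 10 WT and 7 KO oocytes and all 2-cell libraries, in a low-rRNA set (Rn45s under 1%) 3 WT and 10 KO oocytes, and 3 oocytes were in neither. WT 2-cell replicate 8 stood apart, with 0.0583% spike-in RNA against 0.101 to 0.135% and a summed level of oocyte markers of 11437 CPM against 3670 to 8469. KO replicate 3 stood apart in the other direction, with the lowest oocyte markers (6077 CPM) and the highest 2-cell markers (5323 CPM) of its group. KO replicate 4 had the highest oocyte markers (29593 CPM, the next 18828) and the lowest 2-cell markers (366 CPM). The 2-cell totals of the members and lists are given with and without WT replicate 8 and KO replicate 3, and the allele ratios with and without WT replicate 8. For Trp53, Pmaip1, Gadd45a and Zmat3 the KO against WT ratio without KO replicate 4 is given too.

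In WT oocytes Cdkn1a, Gadd45a, Gadd45b and Pmaip1 were at 0.119 to 3.22 pooled CPM and were higher at the 2-cell stage, whereas Trp53, Mdm2, Bax, Ccng1 and Aen were already at 9.91 to 262 pooled CPM in the oocyte. Of the 9 members at 10 CPM, 5 were higher in WT 2-cell libraries than in WT oocytes (Cdkn1a, Pmaip1, Gadd45a, Gadd45b and Ccng1) and none lower, where 41.1% of all 8532 genes were higher and 14.3% lower. The median member ratio was 2.89 on the log2 scale, beside 0.64 for all genes. Members such as Pmaip1, Gadd45a and Gadd45b passed the 10 CPM filter only through the pool where they are high, so these counts are descriptions.

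**Figure D1:**
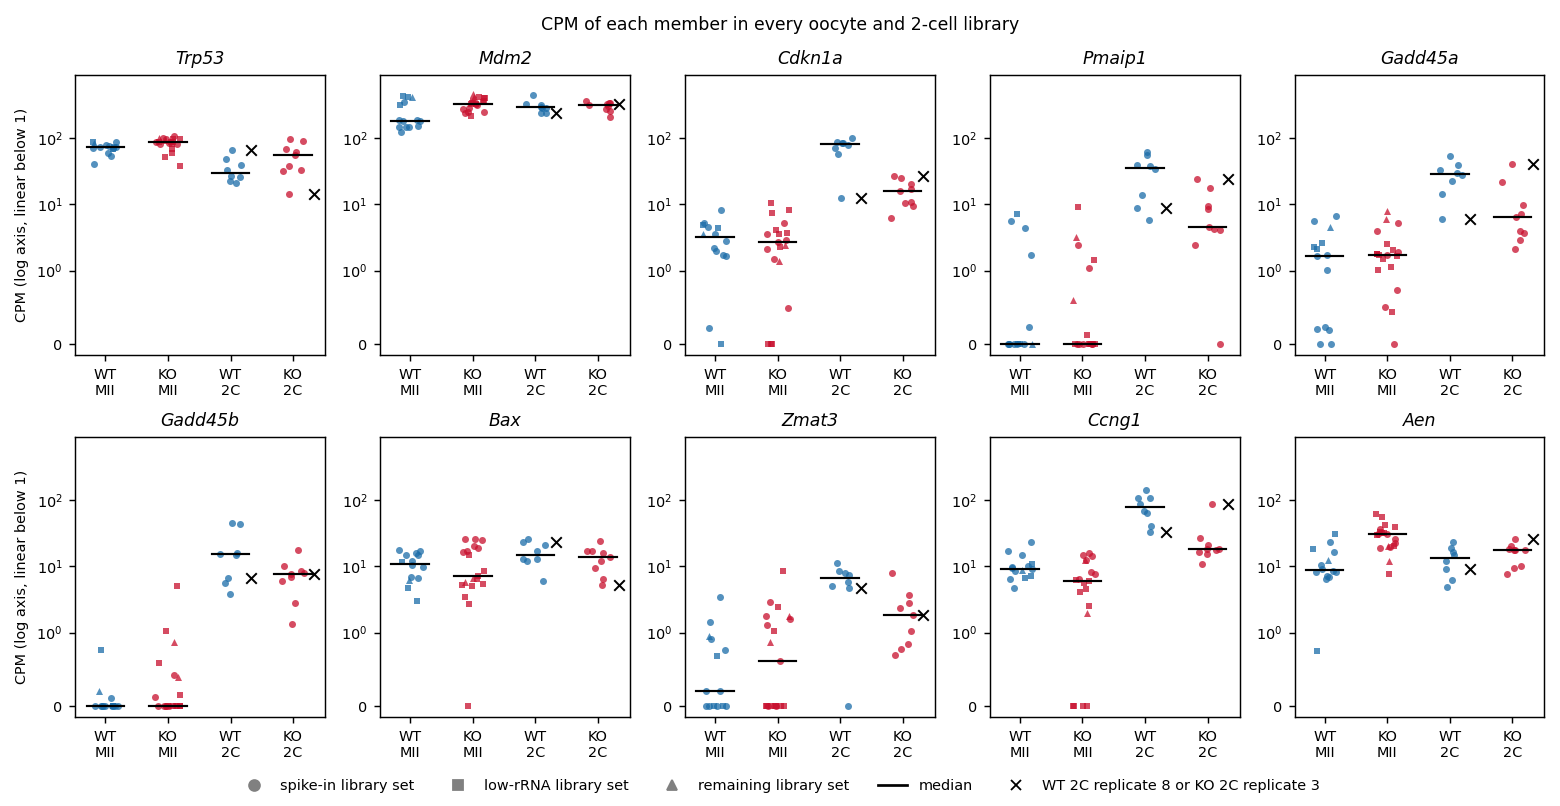
CPM of each member (log axis, linear below 1) in 14 WT and 19 KO MII oocytes and 8 WT and 9 KO 2-cell (2C) libraries; points are libraries, shapes the technical sets, bars medians, and crosses repeat WT 2C replicate 8 and KO 2C replicate 3. Cdkn1a lay at 58.0 to 99.2 CPM in 7 WT 2-cell libraries and at 12.2 in replicate 8, while KO libraries lay at 6.29 to 27.0.

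Cdkn1a lay between 0 and 8.18 CPM in WT oocytes (median 3.15) and between 12.2 and 99.2 CPM in WT 2-cell libraries (median 80.8). The groups did not overlap, and the pooled log2 ratio was 4.29 (4.13 to 4.46). Ccng1 went from 4.73 to 22.9 CPM (median 9.16) to 33.1 to 142 CPM (median 77.5), again with no overlap, a log2 ratio of 2.89. Gadd45b had 13 counts in all 14 WT oocytes together and none in 11 of them, against 3.82 to 45.4 CPM in 2-cell libraries. Its log2 ratio was 7.06 (6.28 to 7.98), and 8.996 without WT oocyte replicate 2, which held 10 of the counts. Cdkn1a, Gadd45b and Ccng1 were the 3 members without overlap, a pattern that 18% of all genes showed in this direction.

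Gadd45a had a median of 1.68 CPM in WT oocytes and 28.9 in WT 2-cell libraries, a log2 ratio of 3.60. Its highest oocyte (6.67 CPM) lay above the lowest 2-cell library (6.02, replicate 8). Pmaip1 was at 0 in 9 of 14 WT oocytes and at most 7.17 CPM in the others, while all 8 WT 2-cell libraries held it, at 5.83 to 60.4 CPM. Its log2 ratio was 4.38, and 5.36 without WT oocyte replicate 1. Zmat3 stayed under 10 CPM in both pools, so it was not called at a log2 ratio of 3.27 (0.634 against 6.11 pooled CPM).

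The members already counted in the oocyte differed less. Trp53 had a median of 73.1 CPM in WT oocytes and 29.6 in WT 2-cell libraries, with all 8 below the oocyte median, and a log2 ratio of -0.92. Without WT 2-cell replicate 8, the highest at 65.0 CPM, it was -1.27 and passed 2-fold. Mdm2 had medians of 181 and 290 CPM, and its log2 ratio of 0.16 was 0.75 against spike-in oocytes alone, where 42.1% of genes were called higher and 12.8% lower. Bax had medians of 10.9 and 15.1 CPM and a log2 ratio of 0.76. Aen had medians of 8.77 and 13.4 CPM and a log2 ratio of 0.01. Scaling by TMM, DESeq2 size factors or spike-in RNA shifted the median of all genes in this comparison by -0.69, -0.92 and -1.08, under which Trp53 was at -1.61, -1.84 and -1.97 and the share of called genes that were higher went from 74.1% to 47.2, 39.0 and 35.7%.

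The other lists of the pathway, chosen like the members with earlier results known, are read beside the 41.1% of all genes that were higher and the 14.3% that were lower. Of 15 p53 regulators and damage kinases at 10 CPM, 5 were higher and 2 lower, led by the checkpoint kinase Chek2 (1.05 to 105 pooled CPM), Atm (8.43 to 96.6), the DNA-dependent kinase Prkdc (4.57 to 35.6) and Trp73. Of 18 other p53 targets, 8 were higher and 1 lower, led by the stress-response genes Sesn1 (0.441 to 26.4 CPM) and Sesn2 and by Ei24 and Plk3. Of 8 BCL2-family genes, 4 were higher and 1 lower. Bid, Mcl1 and Bcl2l11 (Bim) were higher by 5.18, 4.25 and 2.72 on the log2 scale. Bcl2l14 had no count in any WT oocyte and was 856-fold higher against 3 counts set for the group. The lower end of its interval was 9.44 on the log2 scale. Of 16 caspases and regulators, 8 were higher and 2 lower, with the executioner caspase Casp6 higher by 4.75, Diablo higher by 2.03, and the initiator Casp8 lower (97.9 to 16.45 CPM). Medians of the 4 lists were 0.23, 0.83, 1.57 and 0.94, beside 0.64 for all genes.

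Arrest genes and Pmaip1 were lower in KO than in WT 2-cell libraries. Of the 9 members at 10 CPM, none was higher and 5 were lower in KO than in WT 2-cell libraries (Cdkn1a, Pmaip1, Gadd45a, Gadd45b and Ccng1), where 5.96% of all 8416 genes were higher and 31.6% lower. The median member ratio was -1.11, beside -0.35 for all genes. Pmaip1, Gadd45a and Gadd45b reached 10 CPM only in the WT pool (5.55, 7.79 and 7.41 pooled CPM in KO). Without WT replicate 8, or without it and KO replicate 3, the same number of members was lower and 1 was higher. The WT 2-cell libraries enter both comparisons.

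Cdkn1a was counted at 82.4, 69.8, 58.0, 79.1, 84.1, 99.2, 87.2 and 12.2 CPM in WT 2-cell replicates 1 to 8. In KO replicates 1 to 9 it was at 10.3, 10.6, 27.0, 15.8, 9.49, 6.29, 17.1, 24.7 and 20.1 CPM. All 9 KO libraries lay below the WT median, and only WT replicate 8 overlapped them. The pooled log2 ratio was -2.11 (-2.218 to -1.9992), 63.0 against 14.6 CPM. Without WT replicate 8 it was -2.44, and the groups no longer overlapped, as for 13.4% of genes in this direction (36.9% were at least 2-fold lower without it).

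Ccng1 had a median of 77.5 CPM in WT (33.1 to 142) and 18.2 in KO (10.97 to 88.0), a log2 ratio of -1.81 (-1.90 to -1.72). KO replicate 3 alone lay above the WT median, at 88.0 CPM, and the next highest KO library had 26.8. Without WT replicate 8 and KO replicate 3 together the log2 ratio was -2.27 and the groups did not overlap, as for 18.1% of genes, while 37.4% were at least 2-fold lower and 11.7% higher. Gadd45a showed the same library apart: the KO libraries lay at 2.11 to 21.4 CPM and KO replicate 3 at 40.3, against a WT median of 28.9. The Gadd45a log2 ratio was -1.62 (-1.78 to -1.46), -2.23 without both libraries and -1.36 without KO replicate 4 alone. Gadd45b overlapped too, with 3.82 to 45.4 CPM in WT and 1.35 to 17.8 in KO and a log2 ratio of -1.11 (-1.28 to -0.94). Gadd45b was under 2-fold without WT replicate 2 (-0.81), WT replicate 6 (-0.83), KO replicate 2 (-0.99) or KO replicate 5 (-0.97), and with TMM (-0.75) or DESeq2 size factors (-0.64). It was -1.35 without WT replicate 8 and -1.36 without KO replicate 3 as well.

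Of the death genes among the members, only Pmaip1 was called lower. Its medians were 35.7 CPM in WT and 4.45 in KO, all 9 KO libraries lay below the WT median and 1 was at 0. The Pmaip1 log2 ratio was -2.30 (-2.47 to -2.12), with -2.58 without WT replicate 8, -2.82 without KO replicate 3 as well and -1.90 without KO replicate 4. Bax had medians of 15.1 and 13.7 CPM and a log2 ratio of -0.22 (-0.36 to -0.08), and Aen 13.4 and 17.7 CPM and 0.37 (0.21 to 0.52). Bax was at -0.04 and Aen at 0.24 without WT replicate 8, and at 0.0022 and 0.20 without both libraries. Zmat3 was under 10 CPM in both pools (6.11 and 2.44), at a log2 ratio of -1.33, or -1.99 without KO replicate 7, -1.43 without WT replicate 8 and -1.42 without KO replicate 3 as well. Without KO replicate 4 alone Zmat3 was at -1.09.

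p53 and its inhibitor were not lower. Trp53 had a median of 29.6 CPM in WT (21.1 to 65.0) and 54.5 in KO (14.4 to 96.6), and 8 of 9 KO libraries lay above the WT median. The Trp53 log2 ratio was 0.77 (0.68 to 0.85), under 2-fold, and 0.54 without KO replicate 4. Without WT replicate 8 it was 1.12 and was called, where 11.3% of genes were higher. With TMM or DESeq2 size factors it was also called, at 1.13 and 1.24, where 14% of genes were higher under TMM. Mdm2 was at 237 to 442 CPM in WT and 206 to 365 in KO, a log2 ratio of 0.06 (0.03 to 0.09), and -0.02 without WT replicate 8 and -0.03 without both libraries.

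**Figure D2:**
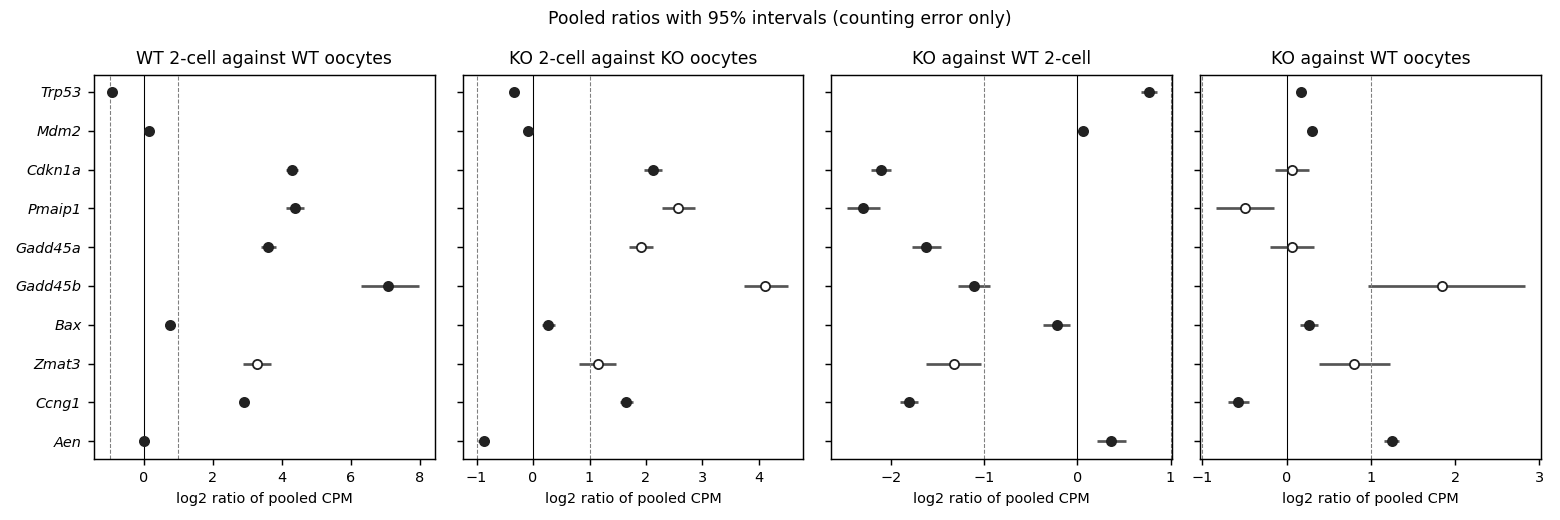
Log2 ratio of pooled CPM for each member in the 4 comparisons, with 95% intervals for counting error; filled points reached 10 CPM in either pool, open points did not, dashed lines mark 2-fold and each panel has its own scale. Cdkn1a lay at 4.29 in the WT stage change and at -2.11 in KO against WT 2-cell libraries, which share the WT 2-cell libraries.

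The scaling bears on these directions. TMM, DESeq2 size factors and spike-in RNA raised the median of all genes by 0.36, 0.47 and 0.82, and the share of called genes that were higher went from 15.9% to 37.1, 45.8 and 67.8%. Under spike-in scaling Cdkn1a (-1.28) and Pmaip1 (-1.47) were still called lower, and Ccng1 (-0.99), Gadd45a (-0.80) and Gadd45b (-0.29) were not. Trp53 (1.59) and Aen (1.19) were then called higher, where 32.3% of genes were higher and 15.3% lower, and Bax was at 0.60 in place of -0.22. Maternal RNA moved with the genotype: the 10 oocyte markers summed to 3670 to 11437 CPM in WT (median 5500) and 6077 to 29593 in KO (median 13475), with none at 0. The 10 measured 2-cell markers summed to 1094 to 2415 CPM in WT (median 2073) and 366 to 5323 in KO (median 1186). Spike-in RNA was 0.0583 to 0.135% of WT and 0.0478 to 0.0957% of KO counts. The part of maternal RNA and of developmental progress in the members' differences was not tested.

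The other lists are read beside the 5.96% of all genes that were higher and the 31.6% that were lower in KO 2-cell libraries. Of 15 regulators, none was higher and 5 were lower. Prkdc was at 35.6 pooled CPM in WT and 3.96 in KO with no overlap of the libraries, as for 1.37% of genes in this direction. Chek2 (105 and 14.0 CPM), Atm (96.6 and 14.6) and the coactivator Ep300 (31.6 and 14.7) were lower in all 9 KO libraries than the WT median. Of 18 other targets, 2 were higher and 6 lower, led by the metabolic regulator Tigar (-2.13), Sesn2 (-1.89), Ei24 (-1.77) and Sesn1 (-1.64). Of 8 BCL2-family genes, 1 was higher and 5 lower. The BH3 genes Bid (-2.16) and Bcl2l11 (-1.99) and Bcl2l14 (-3.72) were lower, and Bcl2l10, an oocyte-enriched survival gene, was higher (1848 against 5929 CPM). Of 16 caspases and regulators, 1 was higher and 6 lower, with Diablo (-1.40) and Aifm1 (-1.39) lower and the inhibitor Birc3 higher (282 against 710 CPM). Medians of the 4 lists were -0.34, -0.33, -1.37 and -0.71, beside -0.35 for all genes. Without WT replicate 8 the counts higher and lower were 0 and 6 of 16 regulators, 3 and 6 of 18 other targets, 2 and 5 of 8 BCL2-family genes and 2 and 6 of 16 caspases and regulators. Of all genes 11.3% were then higher and 36.9% lower. Without KO replicate 3 as well, 1 regulator was higher and the other counts were equal, beside 11.7% of all genes higher and 37.4% lower. Under spike-in scaling the balance turned for all genes, of which 32.3% were higher and 15.3% lower. Beside these shares, 4 regulators were higher and 3 lower of 14, and 4 other targets higher and 2 lower of 17. Of 15 caspases and regulators 3 were higher and 1 lower, and of 8 BCL2-family genes 2 were higher and 3 lower.

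Some members were also higher in KO 2-cell libraries than in KO oocytes. Against KO oocytes, Cdkn1a (log2 ratio 2.12) and Ccng1 (1.65) were higher in KO 2-cell libraries and no member was lower, of 6 at 10 CPM, where 23.6% of 7179 genes were higher and 17.4% lower. All 9 KO 2-cell libraries lay above the oocyte median for both genes. Against spike-in oocytes alone Ccng1 was at 0.89 and was not called, where 19.5% of genes were higher and 16.3% lower. Pmaip1 (2.57), Gadd45a (1.91) and Gadd45b (4.11) stayed under 10 CPM in the KO pools, as did Zmat3 (1.14). Aen was at -0.87 and Trp53 at -0.33. Mdm2 (-0.09) and Bax (0.27) were close to 0. Whether the stage ratios differ between the genotypes was not tested. TMM, DESeq2 size factors and spike-in scaling shifted the median of all genes by -0.30, -0.48 and -0.86 here, and the share of called genes that were higher went from 57.6% to 38.5, 28.2 and 16.4%. Aen was then called lower, at -1.17, -1.36 and -1.51, and under spike-in scaling so were Trp53 (-1.26) and Bax (-1.36), with Ccng1 at 0.11.

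Of 13 regulators at 10 CPM in this comparison, 3 were higher and 1 lower, beside 23.6 and 17.4% of all genes, with Chek2 at 1.28 and 14.0 pooled CPM and the p53-binding repair factor Trp53bp1 at 116 and 30.2. Of 15 other targets, 4 were higher and 1 lower, led by the kinase Plk2 (log2 ratio 3.07) and Ei24 (2.76). Of 6 BCL2-family genes the survival gene Mcl1 was higher (2.67) and none lower. Of 14 caspases and regulators, 1 was higher and 3 lower, among them the inhibitors Cflar (-1.60) and Birc6 (-1.31).

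In oocytes, before fertilisation, Aen was the member that passed 2-fold between the genotypes. Of 5 members at 10 CPM, Aen alone was higher in KO than in WT oocytes and none was lower, where 2.04% of 6325 genes were higher and 2.39% lower. Aen had a median of 8.77 CPM in WT oocytes (0.755 to 31.3) and 30.5 in KO oocytes (7.64 to 60.9), and 18 of 19 KO oocytes lay above the WT median. The Aen log2 ratio was 1.24 (1.16 to 1.33), with 1.38 within the spike-in set (9.41% of genes called higher, 3.69% lower) and 1.01 within the low-rRNA set (1.98% higher, 2.03% lower). The sets differ in Aen too, at pooled 10.4 and 17.1 CPM in WT and 27.1 and 34.3 in KO.

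The other 4 members at 10 CPM were under 2-fold in oocytes. Mdm2 was above the WT median in all 19 KO oocytes, at 211 to 457 CPM against 122 to 432, but its log2 ratio was 0.30 in all oocytes, 0.62 within the spike-in set and -0.15 within the low-rRNA set. Bax was likewise at 0.27, 0.79 and -0.15. The level of Bax also differed between the sets within a genotype, as pooled Bax was at 12.4 CPM in WT spike-in oocytes and 6.31 in WT low-rRNA oocytes. Trp53 was at 0.18, with medians of 73.1 and 86.3 CPM. Ccng1 was at -0.57, at 0.03 within the spike-in set and at -1.35 within the low-rRNA set. There its pools were under 10 CPM, 4 of 10 KO oocytes had no Ccng1 count, and the 3 WT and 10 KO oocytes did not overlap. Of genes at 10 CPM, which leave out Ccng1 here, 1.02% did not overlap in this direction. Cdkn1a, Pmaip1, Gadd45a, Gadd45b and Zmat3 were under 10 CPM in both genotypes, at 0.119 to 3.35 pooled CPM, and were not called. The log2 ratio of Gadd45b was 1.85, from 13 and 63 counts, and went from 0.53 without KO replicate 6 to 3.78 without WT replicate 2. Under spike-in scaling within the spike-in set Mdm2 (1.12) and Bax (1.28) were also called, where the median of all genes was raised by 0.54.

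No regulator (11 at 10 CPM), other target (13) or BCL2-family gene (5) reached 2-fold. Of 13 caspases and regulators, none was higher and 2 were lower: Casp8, at 97.9 pooled CPM in WT and 39.0 in KO, below the WT median in all 19 KO oocytes, and its adaptor Fadd, at 10.04 and 4.79 CPM. Oocyte markers summed to 6346 to 26453 CPM in WT and 8444 to 30381 in KO oocytes, with medians of 8544 and 20869, and cumulus and granulosa markers to 45.5 to 120 and 46.4 to 190. The oocyte marker sum followed the technical set, and 10 of 14 WT but 7 of 19 KO oocytes were in the spike-in set. It was 6346 to 9526 CPM in WT and 8444 to 14452 in KO spike-in oocytes. In low-rRNA oocytes it was 18758 to 24757 CPM in WT and 17647 to 30381 in KO. The part of either in these ratios was not tested.

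The allele tables split part of the 2-cell counts into maternal and paternal alleles, 37.0% of WT and 39.5% of KO counts. Apart from RNA carried by sperm, a transcript of the father's allele was made in the embryo, whereas maternal counts hold both the egg's stock and new transcripts. Oocyte columns are not split. Over all genes the paternal share was 14.6% in WT and 2.80% in KO. The share is a ratio of counts, so the scaling of totals does not enter it. It was lower in KO for 7 of 10 members, beside 82.5% of 9419 genes with 50 or more allele counts in both groups (83.6% without WT replicate 8).

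Ordered by their level in the egg, a grouping made after the values were seen, Trp53, Mdm2, Bax, Ccng1 and Aen came first, at 9.91 to 262 pooled CPM in WT oocytes. All 5 had smaller pooled paternal shares in KO. Their counting intervals did not overlap, but these leave out the spread between libraries. For Mdm2 the share was 14.4% (Clopper-Pearson interval 13.4 to 15.5) in WT and 2.93% (2.54 to 3.36) in KO. For Trp53 it was 30.1% (25.4 to 35.3) and 11.1% (8.97 to 13.6), and for Aen 31.6% (24.3 to 39.6) and 9.66% (6.66 to 13.4). For Bax it was 26.4%, 46 of 174 counts, and 2.29%, 4 of 175 counts, all 4 of them in KO replicates 1 and 2. The Bax share was 35.1% in WT without replicate 8 and 1.18% in KO without replicate 2. Ccng1 had 33.98% (31.9 to 36.1) and 16.4% (14.01 to 18.98). Single libraries with 10 or more allele counts overlapped between the genotypes. Ccng1 ranged from 14.6 to 60.7% in WT and from 0 to 71.4% in KO. Trp53 ranged from 11.1 to 59.65% and from 0 to 36.4%, and Mdm2 from 5.17 to 22.9% and from 1.34 to 7.07%. Aen ranged from 0 to 57.1% and from 0 to 36%, and Bax from 0 to 54.55% in WT with 0 in KO.

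Cdkn1a, Pmaip1, Gadd45a, Gadd45b and Zmat3, at 0.119 to 3.22 pooled CPM in WT oocytes, did not move in 1 direction. Pmaip1 had a smaller share in KO. The paternal share was higher in KO for Cdkn1a (28.2 and 33.1%), Gadd45a (56.3 and 59.5%) and Gadd45b (36.0 and 44.1%), with intervals that overlap for each. Zmat3 had 63.8 and 59.5%, from 127 and 79 counts, and 81.9% in WT without replicate 8. Single KO libraries spread widely: Cdkn1a ranged from 2.94 to 85.7% over 9 KO libraries and from 13.02 to 42.5% over 8 WT libraries.

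**Figure D3:**
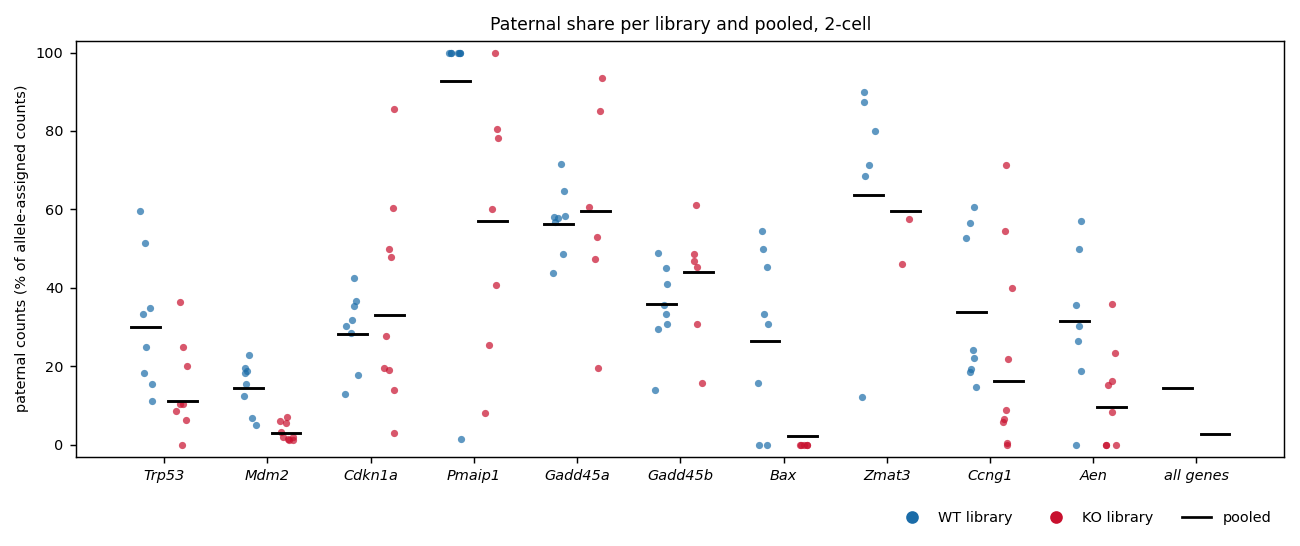
Paternal counts as a percentage of allele-assigned counts in 2-cell libraries, for each member; points are libraries with 10 or more such counts, lines the pooled share, and all genes are shown by the pooled shares of 14.6% in WT and 2.80% in KO alone. Pmaip1 stood at 100% in 7 WT libraries and at 1.52% in replicate 8.

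In allele counts as CPM of all gene counts, Cdkn1a had a paternal log2 ratio of -1.94 and a maternal one of -2.28, Gadd45a -1.52 and -1.71, Gadd45b -0.76 and -1.24, and Ccng1 -2.80 and -1.41. Paternal Gadd45b was thus under 2-fold. The 4 pairs without WT replicate 8 were -2.15 and -2.57, -1.80 and -2.03, -0.95 and -1.51, and -3.13 and -1.57. These ratios, unlike the shares, move with the scaling of totals, by 0.82 under spike-in scaling for the median of all genes. For Mdm2, Bax, Trp53 and Aen the alleles differed. Mdm2 was at -2.21 on the paternal allele (14.8 and 3.19 CPM) and 0.27 on the maternal one, beside 0.06 for its total. Bax was at -4.06 (-6.00 to -2.61) and -0.12, Trp53 at -0.83 and 0.96, and Aen at -1.17 and 0.94. Leaving out WT replicate 8 gave -2.50 and 0.23 for Mdm2, -4.46 and 0.07 for Bax, -0.83 and 1.45 for Trp53 and -1.48 and 0.73 for Aen. Over all genes the ratios were -2.29 and 0.28, or -2.58 and 0.37 without that library.

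Pmaip1 counts were assigned only to the paternal allele in 7 of 8 WT libraries. Whether the allele assignment holds for this gene was not tested. Replicates 1 to 7 held 25, 124, 159, 64, 102, 143 and 199 paternal counts and no maternal count, 816 of 816 (exact interval 99.55 to 100%). Of 10285 genes with 50 or more allele counts in these libraries, 0.457% had no maternal count. Replicate 8 was the reverse, with 1 paternal and 65 maternal counts, so that the WT share with it was 92.6%. Together the KO libraries held both alleles, 146 paternal and 110 maternal counts (57.0%, 50.7 to 63.2), and the share ran from 8.00 to 100% over the 7 libraries with 10 or more. KO replicates 6 and 8 held 17 and 5 paternal counts and no maternal count, and KO replicate 4 held neither. The Pmaip1 log2 ratio was -3.03 on the paternal and 0.22 on the maternal allele. All 65 WT maternal counts are in replicate 8. Without it the paternal ratio was -3.42. The maternal ratio without replicate 8 was 4.26, from 110 KO counts against 3 counts set for the 7 libraries, with 3.94 as the lower end of its interval. Ccng1 also split the WT libraries, with 52.8 to 60.7% paternal counts in replicates 1, 2 and 3 and 14.6 to 24.3% in replicates 4 to 8.

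The epiblast libraries form a separate comparison of cultured (IVC) and E6.5 embryos, with 2 replicates a group, tested with edgeR's quasi-likelihood test over 11565 genes. Totals were 11826853 and 24047088 counts in E6.5 and 10377163 and 10241401 in IVC. The labels do not say whether replicates came from separate embryos, so the p-values measure only the spread between these libraries. All 10 members passed the filter on low counts. Bax and Cdkn1a rose in IVC, and Trp53, Zmat3 and Gadd45b fell, where 12% of genes rose and 23.5% fell at a Benjamini-Hochberg adjusted p under 0.05.

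Bax was at 68.4 and 52.3 CPM in E6.5 and at 513 and 581 CPM in IVC libraries. The edgeR log2 fold change was 3.45 ± 0.26 (SE, adjusted p = 0.0076). Cdkn1a was at 41.2 and 14.7 CPM in E6.5 and 151 and 170 in IVC, a log2 fold change of 2.77 ± 0.67 (edgeR adjusted p = 0.045). This call was lost without either E6.5 library (adjusted p = 0.0657 and 0.189), with total-count scaling (0.051) and with no filter (0.0674). Neither gene overlapped between the groups, as for 21.8% of genes in this direction, against 53.7% in the other. The Bax call held without each library (edgeR adjusted p at most 0.00677).

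Trp53 was at 163 and 165 CPM in E6.5 and 32.96 and 34.2 in IVC, a log2 fold change of -2.01 ± 0.32 (edgeR adjusted p = 0.033). Zmat3 was at 102 and 111 CPM and at 10.1 and 10.1, a fold change of -3.13 ± 0.47 on the log2 scale (edgeR adjusted p = 0.0294). Gadd45b had 105 and 99 counts in E6.5 and none in IVC, at least 39.1-fold lower in IVC against 3 counts over the group (edgeR adjusted p = 0.0402). The calls of Trp53, Zmat3 and Gadd45b were each lost when an E6.5 library was left out, with edgeR adjusted p between 0.413 and 0.601, where the lone library is assumed to vary like the IVC pair.

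**Figure D4:**
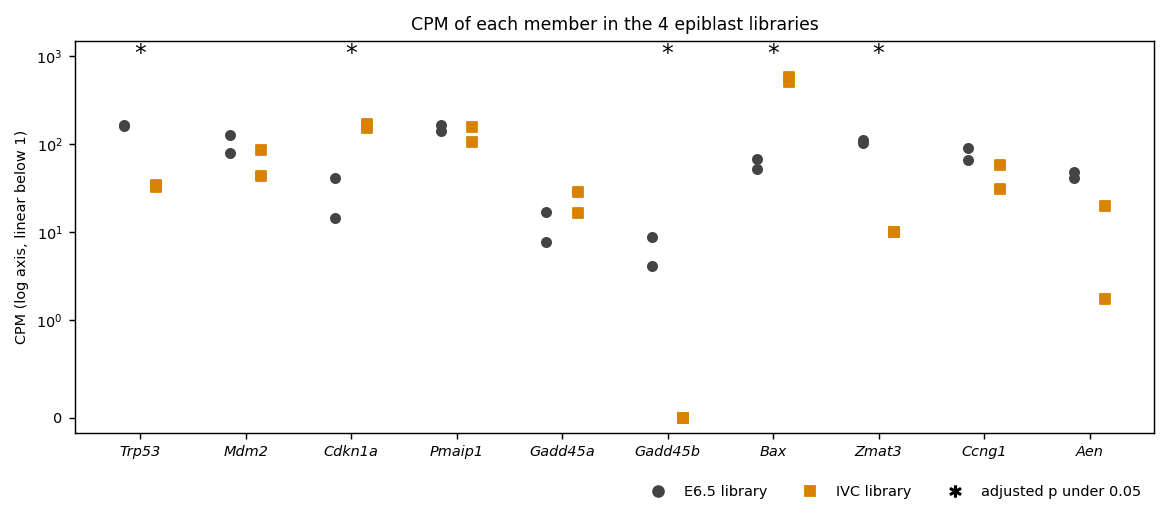
CPM of each member (log axis, linear below 1) in 2 E6.5 (circles) and 2 IVC (squares) epiblast libraries; stars mark an edgeR adjusted p under 0.05. Bax stood at 52.3 and 68.4 CPM in E6.5 and at 513 and 581 in IVC, and Gadd45b was at 0 in both IVC libraries.

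The other 5 members did not pass. Mdm2 was at 127 and 79.1 CPM in E6.5 and 43.1 and 86.4 in IVC (log2 fold change -0.41), and Pmaip1 at 164 and 140 against 106 and 156 (0.05). Gadd45a was at 17.2 and 7.65 against 28.5 and 16.3 CPM (1.11), Ccng1 at 89.7 and 65.7 against 57.7 and 30.9 (-0.54), and Aen at 48.5 and 41.1 against 19.85 and 1.76 (-1.77). Aen depended on which IVC library was used: its log2 fold change was -0.89 without IVC replicate 2 (edgeR adjusted p = 0.0767) and -4.41 without IVC replicate 1 (6.76e-05).

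The other lists are read beside the 12% of all genes that rose and the 23.5% that fell. Of 18 regulators tested, 1 rose and 4 fell, among them the p53 ubiquitin ligases Rchy1 (3.44) and Rfwd2 (Cop1, -4.08), the coactivator Crebbp (-2.19) and the inhibitor Ppp1r13l, with no IVC count. Of 28 other targets, 1 rose and 3 fell. Rps27l was at 57.4 and 73.6 CPM in E6.5 and 3364 and 3387 in IVC, and the death genes Apaf1 and Pidd1 and the kinase Plk3 had no IVC count and were at least 285, 126 and 128-fold lower. Of 12 BCL2-family genes, none rose and 3 fell, the pore-forming Bak1 and the BH3 genes Bmf and Bik, all with no IVC count and the first 2 at least 302 and 90.6-fold lower. Of 21 caspases and regulators, 3 rose and none fell: Cycs (cytochrome c, 5.71), Birc5 (survivin, 3.52) and Casp6 (2.76). Medians of the 4 lists were -2.16, -1.42, -0.44 and -0.21, beside -0.85 for all genes. Genes outside these lists, such as Fgf4, Mesp1, Gsc and Snai1, also had no IVC count. The share of all genes with no IVC count is not given here. The IVC replicates differed more from each other than the E6.5 replicates did, with a chi-square per gene of 163.3 and 36.38. The part of lost detection in the genes with no IVC count was not tested.

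Library make-up moved with this comparison. Rn45s took 26.3 and 23.3% of E6.5 counts and 0.101 and 0.121% of IVC counts. The 10 trophoblast markers summed to 75.8 and 84.7 CPM in E6.5 and 6850 and 6866 in IVC, mostly Prl3d1 (6254 and 6259 CPM), with Cdx2, Hand1 and Ascl2 at 0 in IVC and Tpbpa at 0 in all 4 libraries. The 11 visceral endoderm markers summed to 207 and 234 CPM in E6.5 and 456 and 590 in IVC, and the 8 mesoderm markers to 306 and 274 and to 71.4 and 72.4, with Mesp1, Gsc and Snai1 at 0 in IVC. Of the visceral endoderm markers, Afp, Ttr and Apoa1 passed as higher and none as lower. Without passing, Sox17 was higher and Apob, Cubn and Gata4 were lower in both IVC libraries. The 10 epiblast markers summed to 4803 and 5523 CPM and to 1634 and 1841, with Pou5f1 at 456 and 534 against 448 and 479 and Fgf4 at 0 in IVC. The fall in this sum was mostly Dnmt3b, at 3508 and 4110 CPM in E6.5 and 479 and 396 in IVC. Among the epiblast markers, Tdgf1 passed as higher and Dnmt3b and Fgf4 as lower. The 10 markers of decidua and blood summed to at most 35.1 CPM in any library. The part of other cell types and of rRNA content in the members' differences was not tested, and in bulk libraries fewer cells of a type and less RNA per cell cannot be told apart.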

How the data were processed

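RNA of oocytes, 2-cell embryos and epiblasts was read from the authors' deposited tables, which hold raw read counts for each gene symbol. Build mm9 is given in the submitters' processing notes. Their tool list, without roles, names among others Trim Galore 0.6.6, featureCounts 2.0.1, HTSeq 0.10.0 and STAR 2.6.0a. Of 209 samples, 155 were not analysed here. Totals leave out 92 ERCC rows.

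The members and all gene lists were chosen with earlier results of these data known. Named were all 10 members, Nlrp14 and, of each further list, up to 4 genes past the threshold with the largest ratios. An item that this rule also selects is not reported here. Pooled ratios have exact conditional Poisson intervals, and paternal shares exact Clopper-Pearson ones. A pool at 0 was set to 3 counts. Library sets and the libraries standing apart were defined from the data. No library was a copy of another (smallest chi-square per gene 13.1). Whether counting used strand is not given in the sources used here, so Gadd45a and Zmat3, which overlap long noncoding genes in RefSeq (E230016M11Rik and 4930429B21Rik), may share reads with them. Epiblast tables were joined on 24446 symbols and tested in edgeR 4.0.16 by its two-sided quasi-likelihood test after filterByExpr and TMM scaling. The procedures were tested on simulated data. Alternatives were other scalings, means or medians of libraries, other filters, library sets, DESeq2 1.42.0, a replicate block and each library left out. Spike-in scaling and leaving out both libraries together were added after the data were seen.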

Additional observations from a re-analysis of the deposited data

Results flagged for a closer look

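In 5 cases 1 library of a 2-cell group lay far from the others relative to the range of the group, which chance gives in about 1 of 20 groups. Mdm2 was at 442.4 CPM in WT replicate 2, and the next highest library had 324.2. Cdkn1a was at 12.23 CPM in WT replicate 8, and the next lowest had 58.04. Gadd45a was at 40.31 CPM in KO replicate 3 against 21.35 in the next highest KO library, and Ccng1 at 88.02 CPM in the same library against 26.76. Zmat3 was at 7.864 CPM in KO replicate 7 against 3.733. WT replicate 8 had the highest oocyte markers and the lowest spike-in share of its group, and KO replicate 3 the lowest oocyte markers and the highest 2-cell markers. WT replicate 8 also held the lowest Gadd45a of its group and the highest Trp53. Their part in the members' differences was not tested beyond the values without them.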

How the results depend on the processing

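KO against WT 2-cell libraries had 0 members higher. That count was 1 with TMM or DESeq2 size factors and without both libraries that stand apart, 2 with spike-in scaling, and 0 to 1 with each library left out (1 without WT replicate 8). The 5 lower members were 4 with TMM or DESeq2 size factors (without Gadd45b) and 2 with spike-in scaling. Over all genes 502 were higher and 2658 lower. With TMM, DESeq2 size factors and spike-in scaling, 1167, 1501 and 2683 genes were higher and 1975, 1780 and 1273 lower. For KO oocytes the 1 higher member became 2 with no filter on low counts and 3 with spike-in scaling. That scaling, within the spike-in set, called 1706 of all genes higher and 53 lower. Total counts gave 600 and 235 in the same set and 129 and 151 in all oocytes. Shares over all genes with no filter or with mean or median CPM are not given here. For WT 2-cell against oocytes the 0 lower members became 1 (Trp53) with TMM, DESeq2 size factors, mean CPM, median CPM and spike-in scaling, and 0 to 1 with each library left out. Of all genes, 1224 were lower, and 2397, 2896 and 3208 with TMM, DESeq2 size factors and spike-in scaling. For KO 2-cell against oocytes the 2 higher members were 6 with no filter and 1 with spike-in libraries only, with or without spike-in scaling. The 0 lower were 1 with TMM or DESeq2 size factors and 3 with spike-in scaling. Of all genes, 1246 were lower here, and 1671, 2030 and 2829 with TMM, DESeq2 size factors and spike-in scaling. Genes higher numbered 1691, and 1392 with spike-in libraries only and 556 with spike-in scaling. The cause was not tested. Members with a smaller paternal share in KO stayed between 6 and 8 of 10.

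In epiblast 2 members were higher, and 1 with total counts only and with no filter. With total counts only 1225 genes were higher and 2852 lower. With the replicate block 1 was higher and 0 lower (Bax kept its call), and 893 genes were higher and 361 lower, in place of 1389 and 2717. The numbers do not pair these libraries, as deviations of same-numbered ones correlated at 0.00084. Leaving out each library gave 1 to 3 members higher and 0 to 5 lower, and 612 to 2880 genes higher and 118 to 5476 lower. With no filter 631 genes were lower. Pmaip1, not called, changed sign with DESeq2 (-0.11), DESeq2 size factors (-0.12), total counts (-0.22), no filter (-0.0048), and without E6.5 replicate 2 (-0.11) or IVC replicate 2 (-0.24), in a range of -0.24 to 0.29 with each library left out. The cause was not tested. No paired analysis was possible for oocytes and 2-cell libraries because their results come from no test.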
